A study of Homo sapiens with 18 samples.

Results

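The NOTCH receptors, their ligands and the Fringe enzymes form a set of 10 genes in these RNA-seq data: the receptors NOTCH1, NOTCH2, NOTCH3 and NOTCH4, the ligands JAG1, JAG2 and DLL1, and the Fringe glycosyltransferases LFNG, MFNG and RFNG. They were chosen by gene symbol and joined across tables by Entrez identifier, by a rule that reads no measured value, although the set was proposed with earlier results of these data known. All 10 were listed in each of the 3 tables analysed, among 18526 genes in the CBFB KO table, 18517 in the RUNX1 KO1 table and 18117 in the RUNX1 KO2 table.

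RNA was sequenced from MCF10A, an immortalized, non-tumorigenic line of human mammary epithelial cells, grown without treatment. The 18 samples fell into 5 groups: CBFB KO (3) with the unedited WT cells of that experiment (3), and RUNX1 KO1 (4) and RUNX1 KO2 (4) with 1 shared group of WT cells (4). CBFB encodes the subunit that partners RUNX proteins without itself touching DNA, and RUNX1 is a RUNX transcription factor. The knockouts were made with CRISPR-Cas9 and picked as single-cell colonies. The number of colonies behind each group is not known here, so differences between clones and effects of a deletion cannot be told apart. For each gene the value used was the authors' mean of normalized counts over all libraries of a table, knockout and WT together, which covers 6 libraries in the CBFB KO table and 8 in each RUNX1 table. Such a pooled mean has no replicate values, SD or test, and it cannot give a change from WT to knockout. All values below are therefore descriptions of the level in an experiment as a whole.

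NOTCH signalling passes between touching cells. A Jagged or Delta ligand on a neighbour pulls on the receptor, which is then cut by an ADAM protease and by gamma-secretase, and the freed intracellular domain joins RBPJ and a Mastermind coactivator on DNA. Fringe enzymes extend O-linked fucose on the receptor's extracellular repeats and so alter its response to Delta and Jagged ligands. In the mammary gland the pathway is known for its part in the choice between basal and luminal fates.

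The summed means came to 20214423 in the CBFB KO table, 18050386 in the RUNX1 KO1 table and 16467400 in the RUNX1 KO2 table. The basal epithelial keratin KRT5 had a mean of 87894 to 101688 across the tables. Some other basal markers differed more: KRT17 had means of 10527, 47912 and 68408 in the CBFB KO, RUNX1 KO1 and RUNX1 KO2 tables. KRT14 had 4112 and 9515 in the CBFB KO and RUNX1 KO1 tables, and TP63 had 1606, 953 and 730 in the 3 tables. CDH3, by contrast, had 6254, 6733 and 5895. The 5 endothelial markers together reached at most 7.46 and the T-cell marker CD3E at most 0.301. The fibroblast collagen COL1A1 reached 305, but PDGFRB, DCN and LUM reached at most 3.42, 7.34 and 0.782, and COL3A1 was not listed. The monocyte marker CD14 reached 142, but the immune marker PTPRC had 0.463 in the CBFB KO table and was not listed in the RUNX1 tables. The part of these markers in the NOTCH levels was not tested. KRT14 and SFN were not listed in the RUNX1 KO2 table. The targeted genes were present in every table, with CBFB at 897, 1058 and 931 and RUNX1 at 1606, 922 and 839 in the CBFB KO, RUNX1 KO1 and RUNX1 KO2 tables, but these means include WT libraries and do not check the knockouts.

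To compare genes with each other, each mean was divided by the length of the gene's longest protein-coding transcript and is given as a level per kilobase. The median gene stood at 79.0 per kilobase in the CBFB KO table, 62.7 in the RUNX1 KO1 table and 54.0 in the RUNX1 KO2 table. JAG2, a Jagged ligand, had the highest level per kilobase of the 10 genes in all 3 tables, whether transcript or coding length was used, though NOTCH2 had the higher undivided mean in the CBFB KO table. NOTCH4, a receptor best known from endothelium, was lowest, and DLL1, a Delta ligand, was next to lowest.

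**Figure D1:**
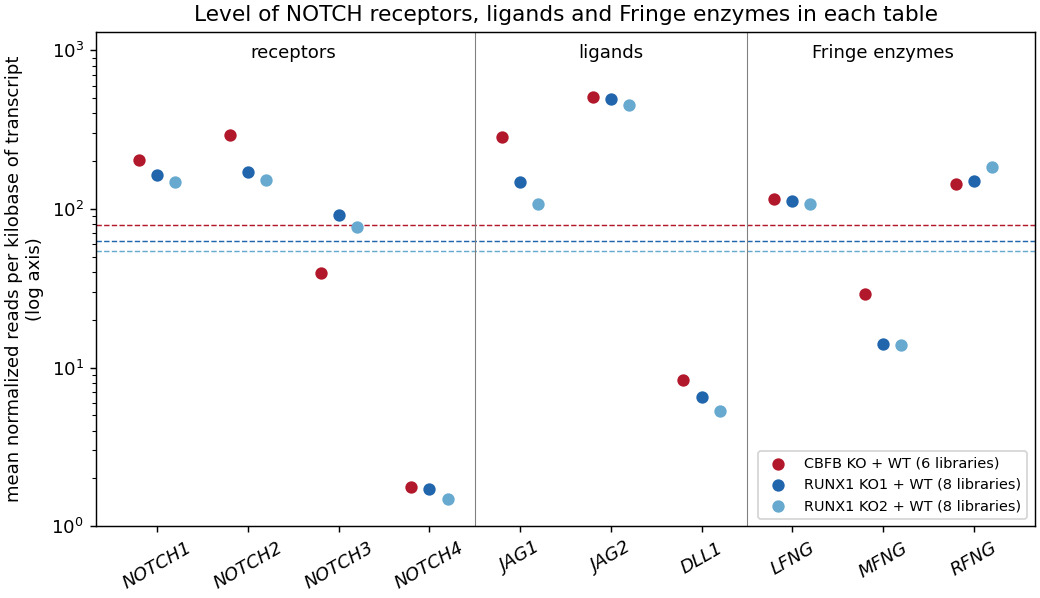
Level of each gene as the authors' mean of normalized counts per kilobase of transcript (log axis), with 1 point per table; dashed lines mark the median gene of each table and each point is a single pooled mean with no error bar. JAG2 lies highest at 452 to 508 and NOTCH4 lowest at 1.47 to 1.77, while NOTCH3 is above the dashed line of its table in both RUNX1 tables and below it in the CBFB KO table.

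Among the receptors, NOTCH1 and NOTCH2, the broadly expressed family members, stood above NOTCH3 in each table. NOTCH2 had 294 per kilobase in the CBFB KO table, 172 in the RUNX1 KO1 table and 152 in the RUNX1 KO2 table, from means of 3344, 1958 and 1734. NOTCH1 had 202, 163 and 148 per kilobase in the same order, from means of 1881, 1520 and 1379. NOTCH2 was thus 1.45-fold above NOTCH1 in the CBFB KO table but only 1.05-fold and 1.03-fold above it in the RUNX1 tables, gaps that cannot be set against any replicate error here. NOTCH2 shares sequence with NOTCH2NL, a near-identical copy of part of the gene with means of 858, 871 and 1037, so the split of reads between them is uncertain.

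NOTCH3, the receptor that the study also deleted in other experiments, was the member whose level differed most between the experiments. It had 39.2 per kilobase in the CBFB KO table, 91.1 in the RUNX1 KO1 table and 76.9 in the RUNX1 KO2 table, from means of 340, 790 and 666. NOTCH1 was 5.15-fold above NOTCH3 in the CBFB KO table, against 1.79-fold and 1.93-fold in the RUNX1 tables. NOTCH3 made up 7.31% of the summed receptor level per kilobase in the CBFB KO table, 21.3% in the RUNX1 KO1 table and 20.3% in the RUNX1 KO2 table. The share of NOTCH2 was 54.7%, 40.2% and 40.2%, and that of NOTCH1 stayed between 37.7% and 39.1%. NOTCH4 contributed at most 0.399%, from means of 9.95 to 11.9.

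The promoter of NOTCH3 is shown because this gene carries the widest gap between the experiments, and that of JAG1 because its mean, in normalized counts on a common scale, differed most between the RUNX1 tables. Both are the 250 bases before the RefSeq start (build GRCh38.p14, minus strand, 5′ to 3′), with GC boxes (GGGCGG on either strand) in capitals:

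NOTCH3, chr19:15200996-15201245: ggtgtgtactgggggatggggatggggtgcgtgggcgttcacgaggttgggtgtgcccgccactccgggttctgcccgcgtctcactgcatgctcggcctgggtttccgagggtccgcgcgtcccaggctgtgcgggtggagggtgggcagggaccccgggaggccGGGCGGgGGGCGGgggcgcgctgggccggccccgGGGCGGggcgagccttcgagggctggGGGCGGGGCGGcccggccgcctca

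JAG1, chr20:10674000-10674249: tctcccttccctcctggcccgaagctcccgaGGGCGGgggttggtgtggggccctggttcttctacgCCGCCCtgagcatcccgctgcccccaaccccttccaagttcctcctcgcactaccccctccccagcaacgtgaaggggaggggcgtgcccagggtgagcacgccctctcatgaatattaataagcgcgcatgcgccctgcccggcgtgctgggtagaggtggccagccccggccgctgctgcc

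NOTCH3 had 5 GC boxes and JAG1 had 2 in these bases. RefSeq windows of 300 bases, reaching past the start, were available for 8 members (9 windows, with none for DLL1 and MFNG). A GC box occurred in 8 of the 9 windows, against 45.0% of all 35116 windows. The exact RUNX motif TGTGGT, searched on both strands, occurred in 0 of the 9, against 13.1% of all windows. Variants of these letters were not searched, so the 0 covers this exact form only. The RBPJ motif TGGGAA, searched likewise, occurred in 2, both of LFNG, against 24.0%. The G and C content of the member windows ran from 56.0% (LFNG) to 79.7% (JAG2), with NOTCH3 at 78.3%, against a median of 58.7% over all windows. The part of this content in the motif counts was not tested. A match describes letters only, and these data hold no binding.

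Among the ligands, JAG2 exceeded JAG1 in each table and DLL1 was at least 20.1-fold below both. JAG2 had 508, 492 and 452 per kilobase in the CBFB KO, RUNX1 KO1 and RUNX1 KO2 tables, from means of 2964, 2873 and 2635. JAG1, the other Jagged ligand, had 283, 148 and 107 per kilobase, from means of 1678, 880 and 637. DLL1 had 8.37, 6.49 and 5.34 per kilobase, from means of 26.6, 20.6 and 16.9. JAG2 was accordingly 1.80-fold above JAG1 in the CBFB KO table, 3.32-fold in the RUNX1 KO1 table and 4.21-fold in the RUNX1 KO2 table. JAG1 took 35.4%, 22.9% and 19.0% of the summed ligand level per kilobase, and JAG2 took 63.6%, 76.1% and 80.0%.

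Among the Fringe enzymes, RFNG was above LFNG per kilobase and MFNG was lowest. RFNG was 1.26-fold, 1.36-fold and 1.73-fold above LFNG in the CBFB KO, RUNX1 KO1 and RUNX1 KO2 tables. RFNG had 144, 151 and 185 per kilobase in the CBFB KO, RUNX1 KO1 and RUNX1 KO2 tables, from means of 264, 276 and 338. LFNG had 115, 111 and 107 per kilobase, from means of 273, 265 and 254. MFNG had 29.1, 14.1 and 13.8 per kilobase, from means of 60.7, 29.4 and 28.9. RFNG therefore made up 50.1%, 54.6% and 60.5% of the summed Fringe level per kilobase, LFNG 39.8%, 40.3% and 35.0%, and MFNG 10.1%, 5.09% and 4.53%. In the CBFB KO table the order of RFNG over LFNG rests on the division by length, because the undivided mean of LFNG is the higher there.

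Summed per kilobase of transcript over the class, ligand over receptor was 1.49 in the CBFB KO table, 1.51 in the RUNX1 KO1 table and 1.49 in the RUNX1 KO2 table. The direction rests on the division by length, since the ratio of the undivided sums was 0.837, 0.882 and 0.868. Receptor over Fringe was 1.86, 1.55 and 1.24 per kilobase of transcript and 1.31, 1.07 and 0.860 per kilobase of coding sequence, so that the order in the RUNX1 KO2 table depends on the length used.

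**Figure D2:**
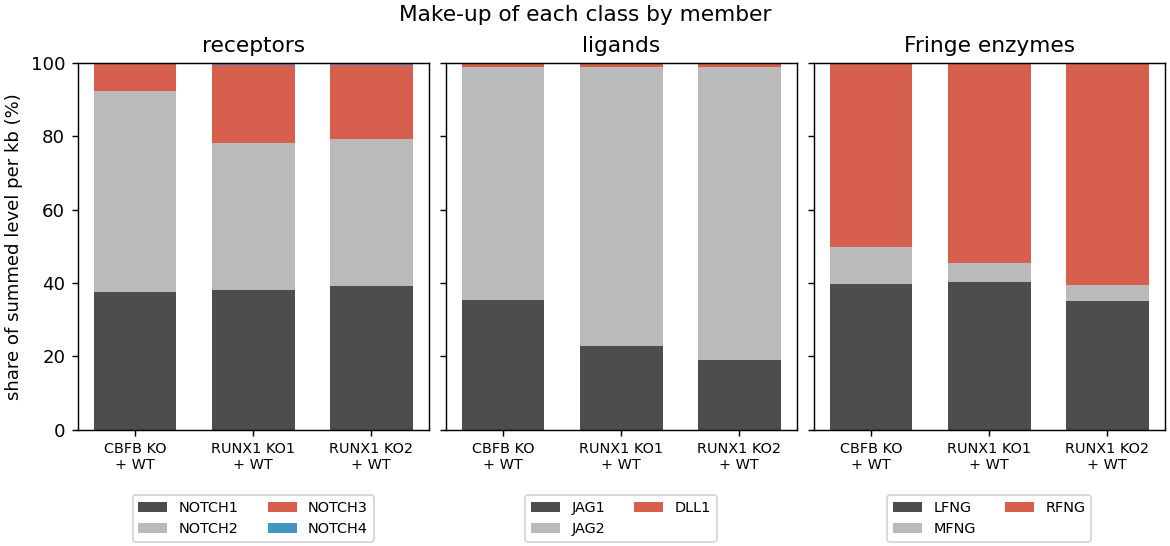
Share (%) of each gene in the summed level per kilobase of its class, with 1 bar per table, all bars reaching 100. NOTCH3 takes 7.31% of the receptor bar in the CBFB KO table and 21.3% and 20.3% in the RUNX1 tables, and JAG1 narrows from 35.4% to 22.9% and 19.0% of the ligand bar.

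The tables were then set against each other gene by gene. They had been normalized separately, so each ratio of pooled means was divided by the median ratio of all genes whose mean reached 10 in both tables, and a ratio of at least 1.5 either way was counted as past the fold. The RUNX1 KO1 and RUNX1 KO2 tables share their WT libraries, so a ratio between them comes from the knockout libraries and from the separate scaling. The shared libraries also pull this ratio towards 1, so it understates the fold between the knockout groups. Of the 9 members compared, 0 passed the fold in the RUNX1 KO2 table over the RUNX1 KO1 table, against 0.937% of all 13123 genes (NOTCH4 fell under the minimum mean).

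JAG1 and RFNG were the members farthest apart between the RUNX1 tables. The log2 ratio of the RUNX1 KO2 table over the RUNX1 KO1 table was -0.37 for JAG1 and 0.39 for RFNG. Of all genes, 5.73% lay at least as far from the median as JAG1, and 4.49% as far as RFNG. Both members were picked as the farthest of those compared. With the shared WT libraries taken out, the JAG1 ratio corresponds to a difference in group means, RUNX1 KO2 minus RUNX1 KO1, of -394 normalized counts, with a counting error of at most 28.0, and the RFNG ratio to a difference of 173, with a counting error of at most 17.9. Counting error leaves out the spread between samples, which these means do not show. The other 7 members compared lay between -0.18 and 0.08, and the log2 ratio of NOTCH3 was -0.15.

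These ratios also moved with transcript length over all genes, from a median log2 ratio of 0.17 in the shortest 20% of genes to -0.08 in the longest 20%. Against genes of like length, JAG1 was at -0.29 and RFNG at 0.28. The part of length in these values was not tested.

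Between the experiments the members were farther apart. Ratios there have no shared libraries to pull them towards 1, so their size is unlike that between the RUNX1 tables. Knockout, WT culture and experiment cannot be told apart in these ratios. Of 10 members 3 were past the fold in the CBFB KO table over the RUNX1 KO1 table, against 15.7% of all 13370 genes: NOTCH3 was lower, with a log2 ratio of -1.44, and JAG1 and MFNG were higher, at 0.70 and 0.82. Of 9 members 5 were past it over the RUNX1 KO2 table, against 26.1% of all 12956 genes: NOTCH3 and RFNG were lower, at -1.31 and -0.70, and NOTCH2, JAG1 and MFNG were higher, at 0.61, 1.06 and 0.73. NOTCH3, JAG1 and MFNG were past the fold in the same direction against both RUNX1 tables. Some basal markers also differed between the experiments, with log2 ratios of -2.41 and -3.04 for KRT17 and -1.44 against the RUNX1 KO1 table for KRT14. TP63 was at 0.52 and 0.80, past the fold only against the RUNX1 KO2 table. KRT5 was inside the fold at -0.44 and -0.46, CDH3 at -0.33 and -0.26 and ITGB4 at 0.14 and 0.26. SFN, compared only with the RUNX1 KO1 table, was also inside it at -0.53. Of the general epithelial markers, KRT8 was past the fold at -0.72 and -1.19. KRT18 was at -0.14 and -0.64, past it only against the RUNX1 KO2 table. CDH1 was inside the fold at -0.46 and -0.52, and EPCAM at 0.18 and 0.14. The luminal markers ESR1, at 0.15 and 0.19, and FOXA1, at 0.02 and 0.04, were inside it too. The part of these markers in the NOTCH3, JAG1 and MFNG ratios was not tested. The other members compared stayed closer to the median gene. For the CBFB KO table over the RUNX1 KO1 and RUNX1 KO2 tables NOTCH1 was at 0.08 and 0.11, JAG2 at -0.18 and -0.17, DLL1 at 0.14 and 0.31 and LFNG at -0.18 and -0.24, and NOTCH4, compared only with the RUNX1 KO1 table, was at -0.18. For NOTCH1, NOTCH4, JAG2 and LFNG the sign changed with the scaling. The median shift that scaling removed was 0.23 and 0.34 on the log2 scale, and -0.10 for the RUNX1 KO2 table over the RUNX1 KO1 table.

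**Figure D3:**
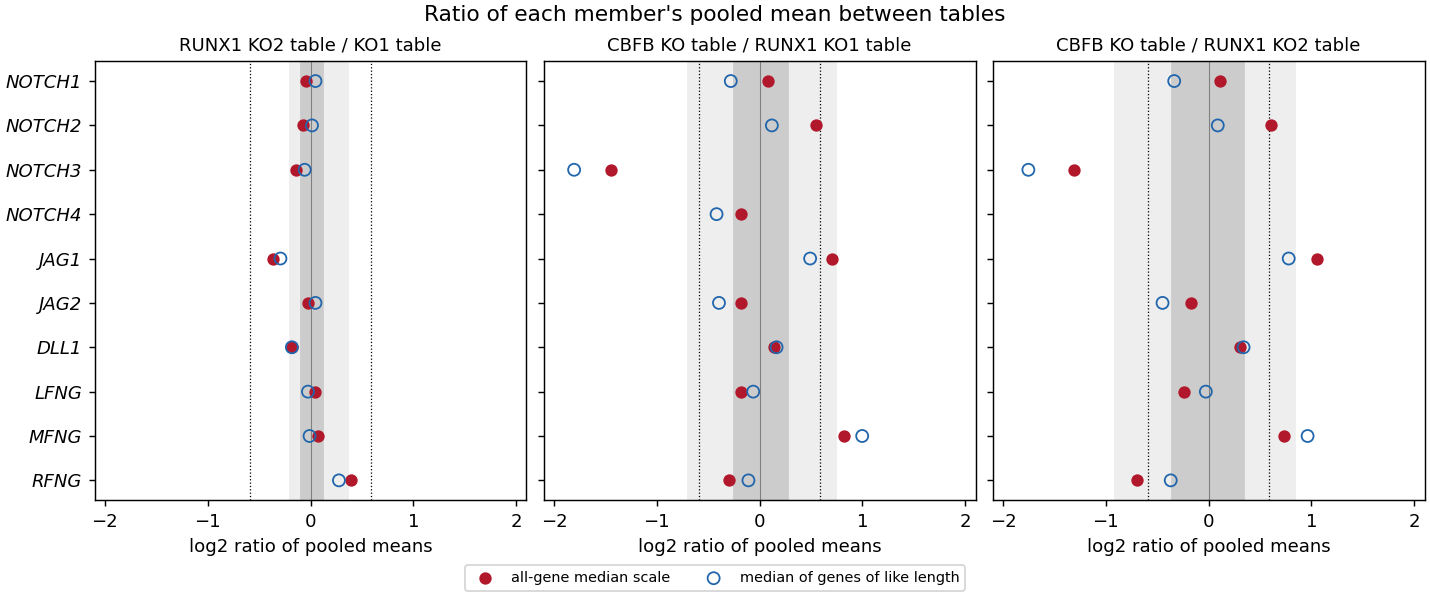
Log2 ratio of each gene's pooled mean between tables, scaled to the median of all genes (filled) or of genes of like transcript length (open); dotted lines mark a ratio of 1.5 either way, and the dark and light bands hold the middle 50% and 90% of all genes. NOTCH3 lies left of the light band in both comparisons with the CBFB KO table, at -1.44 and -1.31, while all 9 points of the RUNX1 KO2 over KO1 panel stay inside the dotted lines.

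Length moved with these ratios more strongly. The median log2 ratio went from -0.25 in the shortest 20% of genes to 0.30 in the longest 20% in the CBFB KO table over the RUNX1 KO1 table, and from -0.40 to 0.39 over the RUNX1 KO2 table. Against genes of like length, NOTCH3 was at -1.80 and -1.75 and MFNG at 0.96 or above in both comparisons, still past the fold. JAG1 was at 0.49 and 0.78, past the fold only against the RUNX1 KO2 table, and NOTCH2, with a long transcript, was at 0.12 and 0.09. RFNG, with a short transcript, was at -0.11 and -0.37.

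The NOTCH3 ratio was wide enough to bear on the single groups. Each table averages equally many knockout and WT libraries, so neither group's mean can exceed 2 times the pooled mean, which is 680 for NOTCH3 in the CBFB KO table. On the same scale the pooled mean of NOTCH3 was 925 in the RUNX1 KO1 table and 844 in the RUNX1 KO2 table. CBFB KO and its WT cells therefore both had group means below the pooled mean of either RUNX1 table on this scale, with no replicate error known. On the deposited scale, without rescaling, the NOTCH3 ratio to the RUNX1 KO2 table was -0.97, just short of that 2-fold limit. On the scale of the median gene, JAG1 also passed the limit against the RUNX1 KO2 table. There 2 times its pooled mean was 1615, below its pooled mean of 1678 in the CBFB KO table. Against the RUNX1 KO1 table, where 2 times the pooled mean was 2062, JAG1 did not pass it. Scaled to genes of like length, the JAG1 ratio to the RUNX1 KO2 table was 0.78, short of the limit.

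The other genes of the pathway give the setting of these levels. In a list of 39 such genes, 36 were listed in the CBFB KO table, 37 in the RUNX1 KO1 table and 36 in the RUNX1 KO2 table. Past the fold were 0 of 32 in the RUNX1 KO2 table over the RUNX1 KO1 table, 10 of 32 in the CBFB KO table over the RUNX1 KO1 table (4 higher, 6 lower) and 10 of 31 over the RUNX1 KO2 table (3 higher, 7 lower), which is 0%, 31.2% and 32.3%, against 0.937%, 15.7% and 26.1% of all genes. Against genes of like length the counts were 0 of 32, 9 of 32 (2 higher, 7 lower) and 6 of 31 (2 higher, 4 lower), where 0.743%, 12.1% and 18.0% of all genes passed. The median log2 ratio of the list was -0.03, -0.05 and 0.03 in these comparisons, against 0 for all genes by construction.

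Machinery that matures and cuts the receptors ranged widely in level. FURIN, the convertase that cleaves the receptor on its way to the surface, had 894, 766 and 662 per kilobase in the CBFB KO, RUNX1 KO1 and RUNX1 KO2 tables, and POGLUT1, an O-glucosyltransferase, had 120, 88.4 and 79.6. Of the gamma-secretase subunits, APH1A was highest at 1669, 1569 and 1489 per kilobase and APH1B lowest at no more than 39.5. Of the 11 maturation and cleavage genes only PSENEN, another subunit, passed the fold, with a log2 ratio of -0.68 for the CBFB KO table over the RUNX1 KO2 table, where 26.1% of all genes passed. Against genes of like length PSENEN was at -0.31, inside the fold.

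Among the other ligands, DLK2, a non-canonical ligand, was most abundant at 204, 242 and 277 per kilobase, and DLL4 least at 1.74, 1.41 and 1.23. DLL3, a divergent Delta protein, had log2 ratios of -1.21 and -1.48 for the CBFB KO table over the RUNX1 KO1 and RUNX1 KO2 tables, and DLK2 had -0.48 and -0.78. Both were thus lower in the CBFB KO table, as NOTCH3 was, although DLK2 passed the fold only against the RUNX1 KO2 table and was inside it at -0.55 against genes of like length.

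Among ubiquitin ligases and endocytic regulators, ITCH had 372, 246 and 202 per kilobase, NUMB 297, 230 and 205, and NEURL1 was lowest at 0.812, 0.739 and 0.940. MIB1, which ubiquitinates ligands for endocytosis, was higher in the CBFB KO table, at 0.92 and 1.01 on the log2 scale, but inside the fold at 0.50 in both comparisons against genes of like length. NEURL1B, a ligase of the same kind, was lower at -0.91 and -0.78, and DTX1, a Deltex protein that binds the receptor, was lower at -1.29 and -1.81. DTX1 had low means of 14.4, 30.0 and 39.8 in the CBFB KO, RUNX1 KO1 and RUNX1 KO2 tables.

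In the nuclear complex, SNW1, a cofactor of the intracellular domain, had 841, 760 and 713 per kilobase and MAML3 5.82, 6.72 and 5.47. Past the fold in the CBFB KO table over both RUNX1 tables were the coactivator MAML2, at 1.07 and 1.10, and the corepressor SPEN, at 0.63 and 0.77. Against genes of like length MAML2 remained past it at 0.83 and 0.78, whereas SPEN was at 0.20 and 0.26.

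Of the target genes, HES1, the repressor most often used as a readout of the pathway, had 266 per kilobase in the CBFB KO table and 405 and 421 in the RUNX1 tables. Its log2 ratios for the CBFB KO table over the RUNX1 KO1 and RUNX1 KO2 tables were at or below -0.84, and its ratio to the RUNX1 KO2 table was 0.498. NRARP, a feedback inhibitor, had -0.80 and -0.91, and HES4 had -1.56 against the RUNX1 KO1 table and was not listed in the RUNX1 KO2 table. HEY1, another repressor of this family, went the other way at 0.70 and 0.55, from low means of 24.4, 12.8 and 13.1. HES5 was near 0, with 0.184 and 0.401 per kilobase in the RUNX1 tables, and HEY2 had 4.29, 3.13 and 2.92. Against genes of like length HES1 was at -0.60 and -0.64, NRARP at -0.61 and -0.58, the latter inside the fold, and HEY1 at 0.83 and 0.77.

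**Figure D4:**
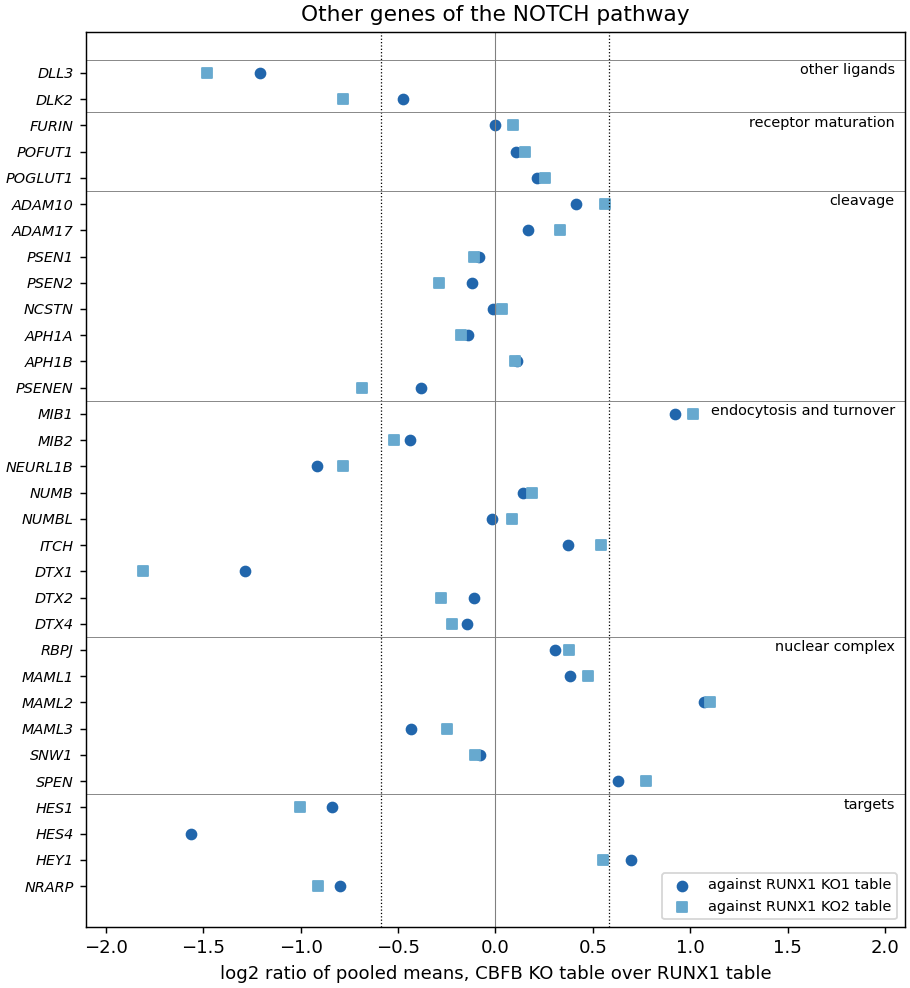
Log2 ratio of pooled means of the CBFB KO table over the RUNX1 KO1 (circles) and RUNX1 KO2 (squares) tables for the other pathway genes with a mean of at least 10, grouped by role; dotted lines mark a ratio of 1.5 either way. DTX1 and DLL3 lie farthest left among genes with both points, MAML2 farthest right, and the maturation genes stay near 0.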

How the data were processed

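The authors trimmed and aligned the reads and compared knockout with WT libraries; the submitters' processing notes name Trimmomatic, STAR, DESeq2 and the build hg19, without versions. The labels name an mRNA kit. In each of the 3 deposited tables the value used is a signal, the authors' mean of counts scaled by size factors over all knockout and WT libraries. The 5 other value columns of each table hold the authors' own comparisons (fold change, its error, statistic, p-values) and were not used. Columns of single samples numbered 0, so depth per library, replicate spread and tests are not given here; precision is known only as counting error, taken as the Poisson error of the mean times the number of libraries.

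Transcript lengths came from GENCODE release 29 by Entrez identifier and were found for 97.2% to 97.4% of genes. Ratios between tables were scaled to the median over genes whose mean reached 10 in both. Calculations used pandas 2.3.3 and numpy 2.4.6. Simulated data were used to test only the median scaling and the fold threshold in the RUNX1 KO2 over KO1 comparison. The other calculations were not tested in this way. The named genes are the 10 members and, from the pathway list, those past a ratio of 1.5 in any pair and the most and least abundant of each role. A gene of that list is not reported here and was left out of its counts. The members and lists were chosen with earlier results of these data known. Alternatives were coding length, no length, other scales, ratios of 1.2 and 2, and other minimum means. The planned protein-derived length was replaced by GENCODE coding length.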

Additional observations from a re-analysis of the deposited data

How the results depend on the processing

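No paired analysis was possible because the values used are means over all libraries of a table; for the same reason no replicate could be left out. With coding length, chosen after seeing the data, the share of NOTCH3 was 6.53%, 19.6% and 18.7% in the CBFB KO, RUNX1 KO1 and RUNX1 KO2 tables, of JAG1 36.2%, 23.5% and 19.6%, and of RFNG 46.7%, 51.3% and 57.3%. With no length, NOTCH3 had 6.10%, 18.5% and 17.6%, RFNG 44.2%, 48.4% and 54.4%, and JAG1 35.9% in the CBFB KO table. At a ratio of 1.2, 2 members passed in the RUNX1 KO2 over KO1 comparison (12.7% of all genes) and 5 in the CBFB KO over RUNX1 KO1 comparison (49.7%); at a ratio of 2, 1 passed in the latter (4.64%) and 2 against RUNX1 KO2 (6.81%). Scaled to genes of like length, also chosen after seeing the data, 3 passed against RUNX1 KO2 in place of 5, and 18.0% of all genes did. The counts stayed within 1.5 times under no rescaling, summed means and minimum means of 0 and 100. The ratios of NOTCH1, NOTCH4, JAG2 and LFNG between experiments, and of NOTCH1, NOTCH2, JAG2, LFNG and MFNG between the RUNX1 tables, changed sign under at least 1 scale. Counting error is wide for NOTCH4, DLL1 and MFNG, and in the pathway list for DTX1, DLL3 and HEY1, whose means are low.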
